A study of Schizosaccharomyces pombe with 3 samples.

Results

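In fission yeast lacking the histone methyltransferase Clr4, 119 short regions of the chromosome arms fell below the Psc3-GFP binding threshold that they passed in wild-type cells and in cdc10-v50 cells. Psc3 is a subunit of cohesin, and its position was measured by chromatin immunoprecipitation of the GFP-tagged protein followed by hybridisation to a tiling microarray of 300-bp tiles (ChIP-chip). A region was chosen where S, the running mean over 3 neighbouring tiles of log2(ChIP/input) centred on the array median, was at least 1 (2-fold) in wild type and in cdc10-v50 and below 1 in clr4d. Passing tiles within 1 kb of each other were joined. The arms excluded the outer 100 kb of each chromosome, the 3 centromere intervals (3.7 to 3.84 Mb of chromosome I, 1.54 to 1.7 Mb of chromosome II and 1.01 to 1.2 Mb of chromosome III) and the mating-type interval (2.1 to 2.16 Mb of chromosome II). The regions held 303 of 37102 arm tiles, and they stood among 541 arm stretches that passed in at least 1 of the arrays.

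The series holds 3 arrays, 1 per group: clr4d, cdc10-v50 and wild type, each with a Psc3-GFP strain in its title. The clr4d group is labelled only by that deletion, and its cells were grown in rich medium at 30 °C. The cdc10-v50 group carries a conditional allele of the cell-cycle transcription factor Cdc10. It was grown at 26 °C and moved to 35 °C for 4 h to arrest cells in G1. The wild-type strain carries mat1Msmto, leu1-32 and ade6-216 with the tagged allele Psc3-GFP::kanMX, and was grown in rich medium at 30 °C. All cells were fixed with paraformaldehyde for 30 min at 18 °C and then with dimethyl adipimidate for 45 min. With 1 array per group there is no replicate check and no p-value, and the regions were chosen by the very ratios given below, so those ratios are a description. The values of clr4d and cdc10-v50 differ in Clr4, in Cdc10, in temperature and in cell-cycle stage, and these cannot be told apart.

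Cohesin is a ring-shaped complex that holds sister chromatids together and shapes chromosome loops. In fission yeast it gathers on the arms at the 3′ ends of converging genes, where transcription from both sides meets. Clr4 methylates histone H3 on lysine 9, and the heterochromatin protein Swi6 that binds this mark recruits cohesin to the pericentromeric repeats and the mating-type region. The regions described here lie on the arms, outside the intervals listed above.

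Array positions matched the reference assembly ASM294v3 on the chromosome III left arm alone, and 4 of the 119 regions lay there. Each of the 4 was a piece of a longer binding stretch at a pair of converging genes. Sequences are shown for the 2 pairs whose shared end lies nearest to a region. Of these gene ends, only that of tcb1 reaches into its region, and only in part. Those of bir1, btb1 and sdh3 lie in tiles of the stretches that also passed in clr4d. The first pair is tcb1 (chrIII:545655-545744, plus strand) and bir1 (chrIII:546108-546197, minus strand). The second pair is btb1 (chrIII:135471-135560, plus strand) and sdh3 (chrIII:135957-136046, minus strand). Each line gives the last 90 coding bases in RefSeq's ASM294v3, 5′ to 3′ on the coding strand, with the stop codon in capitals.
tcb1: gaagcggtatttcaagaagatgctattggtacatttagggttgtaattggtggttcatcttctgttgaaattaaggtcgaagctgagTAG
bir1: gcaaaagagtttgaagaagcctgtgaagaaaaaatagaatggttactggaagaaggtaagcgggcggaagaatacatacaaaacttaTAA
btb1: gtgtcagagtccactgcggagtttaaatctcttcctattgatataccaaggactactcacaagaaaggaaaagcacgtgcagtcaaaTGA
sdh3: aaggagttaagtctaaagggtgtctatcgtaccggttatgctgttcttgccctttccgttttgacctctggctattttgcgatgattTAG
These gene ends are 61.1%, 63.3%, 57.8% and 56.7% A and T in the order shown. The annotated transcripts of tcb1 and bir1 overlap by 208 bp, whereas those of btb1 and sdh3 leave a gap of 163 bp.

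At the tcb1 and bir1 ends, the ratio of Psc3-GFP ChIP to input was lower in clr4d along 1 side of the stretch. Tcb1 is a tricalbin that tethers the endoplasmic reticulum to the plasma membrane, and Bir1 is the survivin of the chromosomal passenger complex. The region covered chrIII:544201-545700, inside tcb1, and ended 208 bp from the midpoint of the 2 gene ends. Its level, the mean of S over its tiles, was 0.77 in clr4d, 1.64 in cdc10-v50 and 1.25 in wild type. The SD among the single-tile ratios of the region and 1 tile on either side was 0.21 in clr4d, 0.28 in cdc10-v50 and 0.21 in wild type (7 tiles). The level was thus 0.87 lower than in cdc10-v50 and 0.48 lower than in wild type on the log2 scale. Relative to the arm median of its channel, ChIP in clr4d differed by 0.06 from wild type and by -0.74 from cdc10-v50. Input differed by 0.48 and 0.11 in the same order. The wild-type ChIP signal was saturated at 3 of the 7 tiles, so the 0.06 cannot show whether ChIP was lower in clr4d than in wild type. After loess normalisation within arrays the region no longer met the rule. The full stretch, from 544201 to 548100, held 13 tiles, of which 8 also passed in clr4d with a highest S of 1.59, against 2.10 in cdc10-v50 and 1.34 in wild type. The bir1 side of the stretch was therefore bound in all 3 strains.

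At the btb1 and sdh3 ends the region was a single tile, chrIII:135001-135300, near the 3′ end of btb1. Btb1 is a BTB/POZ adaptor of a ubiquitin ligase, and sdh3 encodes a cytochrome b subunit of succinate dehydrogenase. The tile's S was 0.97 in clr4d, 1.06 in cdc10-v50 and 1.25 in wild type, with an SD among 3 tiles of 0.13, 0.12 and 0.23 in the same order. The difference between clr4d and cdc10-v50 was -0.09. The SD is a spread within each array and cannot judge a difference between arrays. Of the 6 tiles of the stretch, 5 passed in clr4d, where the highest S was 1.43, against 1.68 in cdc10-v50 and 1.45 in wild type. The single-tile region was found again under 3 of 8 alternative processings that kept the rule's limits, and not with loess.

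The other 2 regions with gene names were also edges or single tiles. One lay in efr3 (chrIII:264901-265500) and had a level of 0.97 in clr4d, 1.07 in cdc10-v50 and 1.19 in wild type. Its stretch reached to within 80 bp of the midpoint between the ends of efr3 and tef101, a gene of translation elongation factor 1 alpha, and 8 of the 10 tiles passed in clr4d. The other lay in pog1 (chrIII:942001-942300) and had an S of 0.997 in clr4d, 1.28 in cdc10-v50 and 1.88 in wild type. Its stretch ran over the ends of pog1 and opy1, and 15 of the 16 tiles passed in clr4d. Of the same 8 alternatives, the efr3 region was found again under 5 and the pog1 region under 4.

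Between 100 and 1000 kb of chromosome III, 11 stretches passed in both cdc10-v50 and wild type. All 4 of those with a region weaker in clr4d lay within 500 bp of the midpoint between converging genes, as did 5 of the 7 that passed in full in clr4d. Of all single arm tiles there, 393 of 2859 (13.7%) lay that near. A stretch is longer than a tile and so comes nearer by its size, which makes the 2 shares unlike measures. The regions themselves were 208 and 342 bp from the midpoint at tcb1 and btb1, and 2480 and 2319 bp from it at efr3 and pog1. The median distance of all arm tiles there was 2333 bp, so the last 2 regions were about as far as a typical tile. Of the junctions, 94 of the 352 between neighbouring protein-coding genes were convergent. The regions overlapped 4 of the 351 protein-coding genes and 4 of the 518 noncoding RNA genes of this interval. None of the 13 ribosomal protein genes (such as rpl101 and rps1501), the 10 tRNA genes, the 2 elongation factor genes (tef101 and eft202), the 2 heterochromatin genes (ago1 and raf2) or the 1 glycolytic gene (tpi1) overlapped a region. With 4 regions these counts are small.

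Across the genome, most of the 119 regions were short, and their levels in clr4d ran from near 0 to just under the threshold. The median length was 600 bp (300 to 3000 bp). Single tiles made up 47 of them, 27 held 2 tiles and 45 held at least 3. The median level was 0.85 in clr4d (0.06 to 0.997), 1.11 in cdc10-v50 (1.005 to 2.07) and 1.21 in wild type (1.01 to 1.88). In clr4d 76 regions were below 0.9, 37 below 0.75, 9 below 0.5 and 2 below 0.25.

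**Figure D1:**
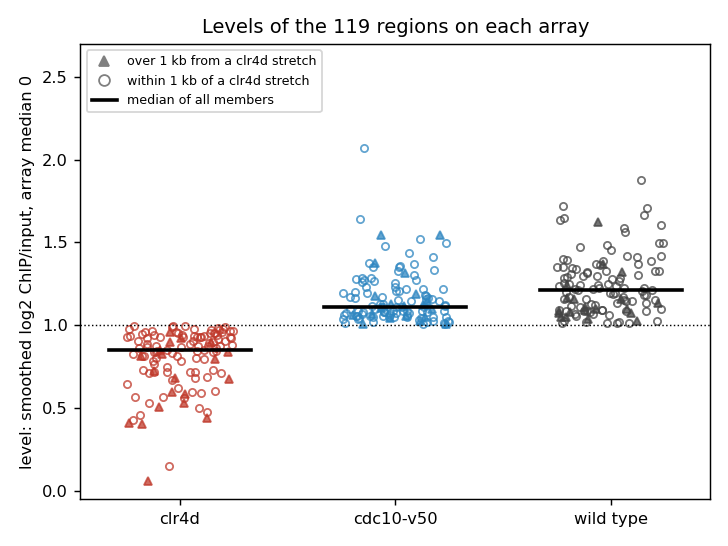
Level of each of the 119 regions (y axis, smoothed log2 ChIP/input with the array median at 0) on the clr4d, cdc10-v50 and wild-type arrays; triangles are the 20 regions over 1 kb from any stretch that passes in clr4d, open circles the other 99, and black bars medians. The dotted line at 1 is the threshold that chose the regions, so the gap between arrays at that line is built in; the clr4d points run from 0.06 to 0.997 around a median of 0.85.

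Tiles lay close to the threshold on both sides. Just inside, the 3 highest clr4d values of S were 0.9998, 0.9983 and 0.9973, and just outside, the 3 lowest of the tiles that passed in all arrays were 1.001, 1.002 and 1.004. In all, 96 of the 303 tiles had a clr4d value from 0.9 to below 1, and 94 of the 930 tiles bound in all 3 arrays had one within 0.1 above it.

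Relative to wild type, the level in clr4d differed by a median of -0.41 (SD among regions 0.24, range -1.02 to -0.03). Relative to cdc10-v50, the median difference was -0.31 (SD 0.25, range -1.49 to -0.04). A level at least 1 log2 unit (2-fold) below wild type was seen in 2 regions, and 1 at least 0.5 below in 41. Against cdc10-v50 these counts were 2 and 29, and 20 regions were at least 0.5 below both. Among the single tiles of the regions, 15 of 303 were at least 1 below wild type and 136 at least 0.5 below. Over all arm tiles the shares past those limits were 1.22% and 11.7% against wild type. Against cdc10-v50, 9 and 117 tiles of the regions passed the limits, and over all arm tiles 0.262% and 6.79% did. Since the choice of the regions used these differences, nothing is read from their excess. The 159 regions bound in all 3 arrays had a median difference of 0.04 in clr4d relative to wild type, and 5 of them were at least 0.5 lower.

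The same choice made for another array gave as many regions. Where the rule asked for S below 1 in cdc10-v50 alone it found 119 regions, and for wild type alone 125. Of the tiles that passed in the other 2 arrays, 24.6% were below 1 in clr4d (303 of 1233), 26.9% in cdc10-v50 (342 of 1272) and 25.1% in wild type (311 of 1241). The median S of those tiles was 0.82 in clr4d, 0.82 in cdc10-v50 and 0.84 in wild type. The low end did differ in number: 46 of the tiles (15.2%) were below 0.5 in clr4d, against 32 (9.36%) in cdc10-v50 and 26 (8.36%) in wild type. The clr4d array also had the widest ratios: their SD over all arm tiles was 0.68, against 0.58 in cdc10-v50 and 0.63 in wild type. The arrays were not scaled to a common spread, and the part of this width in the low end was not tested. Neighbouring tiles share their running mean, so these counts are not of independent tiles. The share of shared tiles that fell short was thus no larger in clr4d than in the other arrays. The regions are therefore named here by the rule that chose them, and not as sites lost without Clr4.

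**Figure D2:**
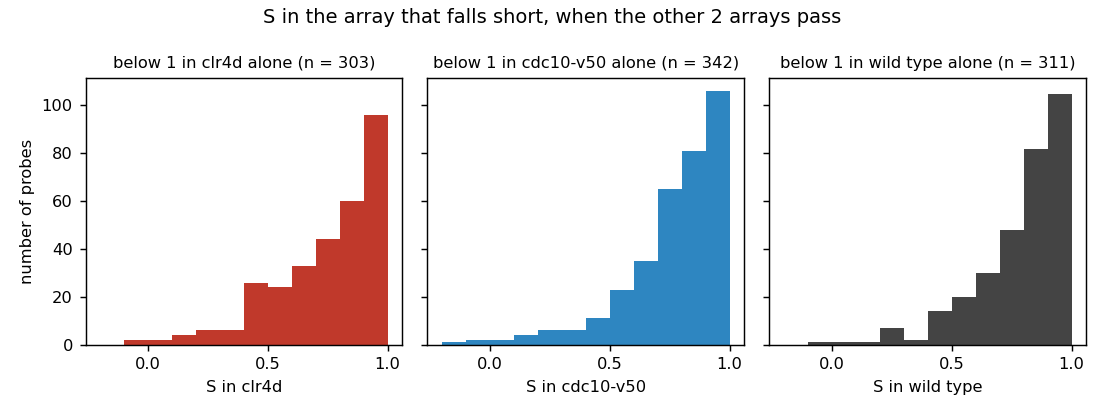
Number of tiles (y axis) by their S (x axis, smoothed log2 ChIP/input) in the 1 array that falls below 1 where the other 2 pass: clr4d (303 tiles), cdc10-v50 (342) and wild type (311). All 3 distributions are highest just below 1, and values below 0.5 number 46, 32 and 26 in the order of the panels.

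Most regions lay at the end of a cohesin stretch that clr4d cells kept in part. Within 1 kb of a stretch with S of at least 1 in clr4d lay 99 of the 119 regions (83.2%, exact 95% binomial interval 75.2 to 89.4%, counting error only), and 93 touched one. Some regions are pieces of the same stretch, and the interval treats them as independent. No such share is given for all arm tiles or for the regions below 1 in another array. The 83.2% is therefore not read as particular to these regions. Beside these 99, the highest S of clr4d within 1 kb had a median of 1.42 (1.00 to 2.06). Seen from the 189 stretches that passed in both cdc10-v50 and wild type, 80 passed at every tile in clr4d, 77 at some tiles and 32 at none. Of those 32, 12 lay within 1 kb of a separate clr4d stretch. They count among the 99 without being the flank of a kept stretch. In the 77 partly kept stretches, the median of the highest S was 1.43 in clr4d, 1.52 in cdc10-v50 and 1.47 in wild type. A clr4d summit of at least 1 is built into that class, and single stretches differed, as at the peak near the mating-type interval described below. Of the regions, 80 formed an end of such a stretch, 7 lay inside one with passing tiles on both sides, and 32 were a whole stretch. The partly kept stretches were the longest class, with a median of 2100 bp, against 1500 bp where all tiles passed and 900 bp where none did. A stretch of 1 tile cannot be partly kept, and a longer one has more tiles that may differ. This order is therefore partly built in.

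The remaining 20 regions lay over 1 kb from any clr4d stretch. Their median level was 0.70 in clr4d, 1.11 in cdc10-v50 and 1.099 in wild type, and the median difference was -0.46 relative to cdc10-v50 and -0.43 relative to wild type. The highest clr4d S within 1 kb lay between 0.57 and 1.00 at every one of them. It is a maximum over the region and its surroundings, and the choice of these regions sets its upper limit. At chrIII:1695301-1696200 it was 0.90, while the region's level was 0.06. Around the centres of the 20 regions the mean log2 ratio of single tiles was 0.70 ± 0.28 in clr4d (SD, 40 tiles), 1.19 ± 0.65 in cdc10-v50 (39 tiles) and 1.16 ± 0.25 in wild type (40 tiles). At 3 kb to the right it was 0.51 ± 0.58 in clr4d, 0.20 ± 0.45 in cdc10-v50 and 0.33 ± 0.43 in wild type. At 3 kb to the left it was 0.16 ± 0.52 in clr4d, 0.13 ± 0.58 in cdc10-v50 and 0.24 ± 0.52 in wild type.

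**Figure D3:**
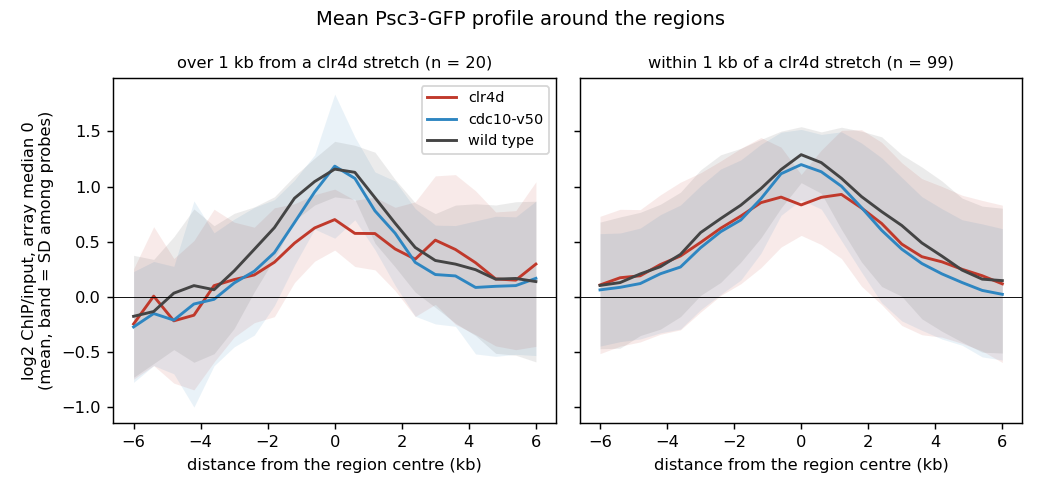
Mean log2 ChIP/input of single tiles (y axis, band = SD among tiles) in 0.6-kb steps from the region centre (x axis, kb) for the 20 regions apart from clr4d stretches and the 99 beside one. Apart from clr4d stretches, the clr4d mean peaks at 0.70 in the centre, under the 1.19 of cdc10-v50 and the 1.16 of wild type; beside them, clr4d dips to 0.83 in the centre and is 0.93 at 1.2 kb to the right.

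Several of the regions named for their low clr4d values lay near the mating-type interval of chromosome II. The region chrII:2167501-2170200, 9 tiles long and 7.5 kb outside the mating-type interval, had a level of 0.43 in clr4d, 1.33 in cdc10-v50 and 1.35 in wild type. The SD among 11 tiles was 0.35 in clr4d, 0.34 in cdc10-v50 and 0.32 in wild type. A second region, chrII:2173501-2174700, lay on the other side of the same peak with 0.60 in clr4d, 1.52 in cdc10-v50 and 1.37 in wild type. Between these 2 flanks clr4d kept a smaller summit, with an S of 1.40 within 1 kb of the second region. Further out, chrII:2191801-2193300 had 0.81 in clr4d, 1.22 in cdc10-v50 and 1.72 in wild type.

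The region chrII:2552701-2553900 had a level of 0.15 in clr4d, 1.12 in cdc10-v50 and 1.16 in wild type. The SD among 6 tiles was 0.18 in clr4d, 0.19 in cdc10-v50 and 0.06 in wild type, a spread within each array that says nothing of the spread between arrays. The region counted as beside a clr4d stretch, with an S of 1.39 within 1 kb, because of 1 bright tile. That tile, chrII:2555101-2555400, read 3.32 in clr4d, 0.67 in cdc10-v50 and 0.75 in wild type, and the tiles on its 2 sides read -0.17 and 0.28 in clr4d. The apart region chrII:2346601-2347500 had 0.51 in clr4d, 1.05 in cdc10-v50 and 1.37 in wild type, with an SD among 5 tiles of 0.09 to 0.13 on the 3 arrays. On chromosome I, the region 5254201-5255100 had 0.53 in clr4d, 1.27 in cdc10-v50 and 1.39 in wild type, and chrII:1023901-1025400 had 0.50 in clr4d, 1.06 in cdc10-v50 and 1.37 in wild type. The region with the least clr4d signal around it, chrI:1133401-1135200, was singled out after its values were seen. It had 0.40 in clr4d, 1.099 in cdc10-v50 and 1.08 in wild type, and clr4d reached no more than 0.57 within 1 kb. After loess normalisation within arrays, the regions chrII:2552701-2553900, tcb1, chrI:5254201-5255100, chrII:1023901-1025400 and chrI:1133401-1135200 no longer met the rule, while both flanks near the mating-type interval and chrII:2346601-2347500 did.

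In 2 of the named regions the choice rested on a single bright tile. At chrIII:1695301-1696200 the level was 0.06 in clr4d, 1.55 in cdc10-v50 and 1.08 in wild type, the largest gap of all regions against either array. Its middle tile read 0.55 in clr4d, 4.54 in cdc10-v50 and 1.89 in wild type, where it was saturated, while the tile to its left read -0.19 in clr4d, -0.31 in cdc10-v50 and 0.65 in wild type. At chrI:324001-324600 the right tile likewise read 0.84 in clr4d, 4.46 in cdc10-v50 and 2.29 in wild type, and the left tile 0.91, 1.01 and 0.64 in the same order. With a running median in place of the mean, an alternative chosen after these values were seen, neither region met the rule.

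**Figure D4:**
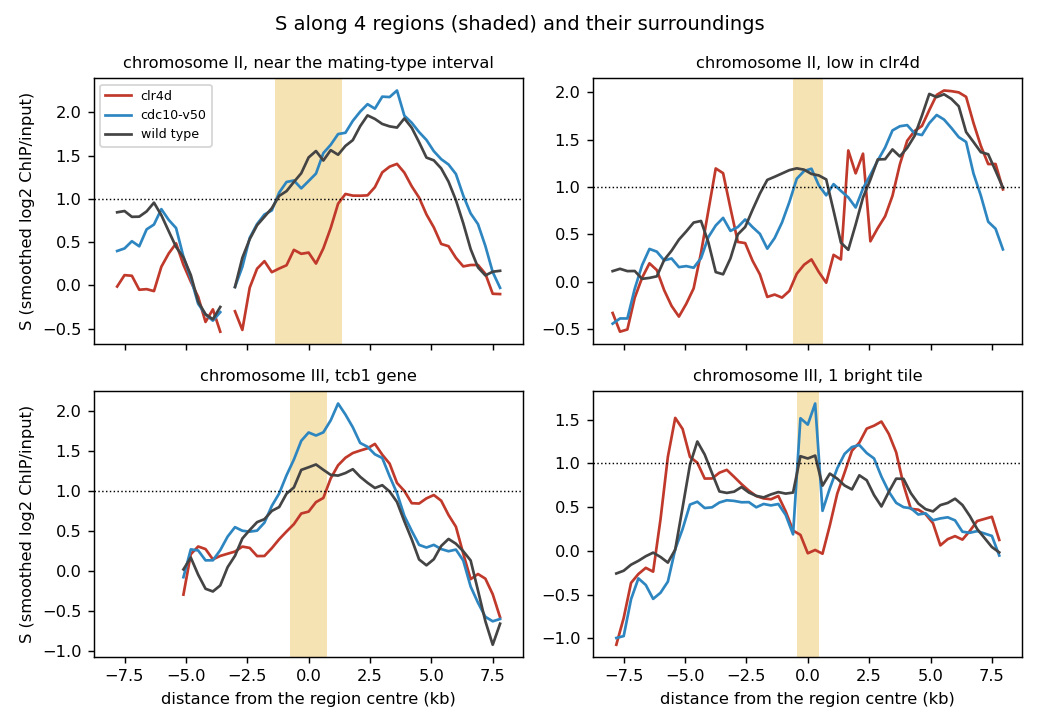
S (y axis, smoothed log2 ChIP/input) against distance from the region centre (x axis, kb) at 4 regions, shaded, for clr4d, cdc10-v50 and wild type; the dotted line is the threshold of 1, and lines break where tiles are missing. The first panel shows the flank near the mating-type interval (0.43 in clr4d), the second the lowest region of chromosome II (0.15), with a rise on its right set by 1 bright tile, the third the tcb1 flank (0.77) and the fourth the region set by 1 bright tile (0.06).

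Among the longest regions, chrIII:1220701-1223700 spanned 3000 bp with 7 passing tiles of 10, and had 0.84 in clr4d, 1.204 in cdc10-v50 and 1.31 in wild type. The region chrII:3566101-3568800 had 0.79 in clr4d, 1.37 in cdc10-v50 and 1.31 in wild type. At chrIII:2265301-2267700, apart from any clr4d stretch, the level was 0.72 in clr4d, 1.19 in cdc10-v50 and 1.05 in wild type with an SD among 10 tiles of 0.13, 0.10 and 0.09. The apart region chrI:1010701-1012800 had 0.68 in clr4d, 1.31 in cdc10-v50 and 1.09 in wild type. The last is 1 of 5 regions of 2100 bp and was named for its lowest start. Another of them, chrII:3821701-3823800, singled out after its values were seen, differed from wild type by -0.82. Of the other named regions, chrI:3562201-3564300 and chrII:2484601-2485500 were farther below cdc10-v50 (-0.75 and -0.78) than below wild type (-0.31 and -0.70). The reverse held for chrII:235201-236400 and chrII:352501-352800, at -0.33 and -0.24 against cdc10-v50 and -0.88 and -0.89 against wild type.

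The position of the regions was set beside that of all arm tiles. Chromosomes I, II and III held 60, 46 and 13 of them (50.4%, 38.7% and 10.9%), beside 46.0%, 36.2% and 17.8% of the arm tiles. Within 25 kb of an excluded interval (the 100-kb limit at a chromosome end, a centromere interval or the mating-type interval) lay 10 of the 119 (8.40%), beside 3.07% of the arm tiles. There, 40 of the 68 tiles that passed in both cdc10-v50 and wild type were below 1 in clr4d (58.8%), against 24.1% at 25 to 50 kb, 23.6% at 50 to 200 kb and 22.2% beyond 200 kb. With cdc10-v50 as the array below 1, the share within 25 kb was 6.67% (2 of 30 tiles), and with wild type it was 24.3% (9 of 37). Over all arm tiles within 25 kb, bound or not, the median difference of clr4d from wild type was -0.18, against 0.04 beyond 200 kb. Neighbouring tiles share their running mean, so these tiles are not independent.

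All 3 kinds of interval had such regions: 17 of 21 shared tiles were below 1 in clr4d near the centromere intervals (3 regions), 16 of 39 near the mating-type interval (5 regions) and 7 of 8 near the chromosome ends (2 regions). Near the mating-type interval these were the 2 flanks of 1 peak described above (9 and 4 tiles) and 3 single tiles on its left side. Near the ends, the region chrI:5451001-5451300 had 0.44 in clr4d, 1.38 in cdc10-v50 and 1.02 in wild type, and its neighbour chrI:5452501-5454300 had 0.53 in clr4d, 1.18 in cdc10-v50 and 1.101 in wild type. Both lay over 1 kb from any clr4d stretch. Both were at the right end of chromosome I, so 1 chromosome end gave all 7 of the end tiles below 1. The median difference from wild type was -0.58 over the 10 regions within 25 kb and -0.40 over the 81 beyond 200 kb. These distances describe the intervals drawn by the rule, not the edges of heterochromatin, which the arrays do not measure.

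**Figure D5:**
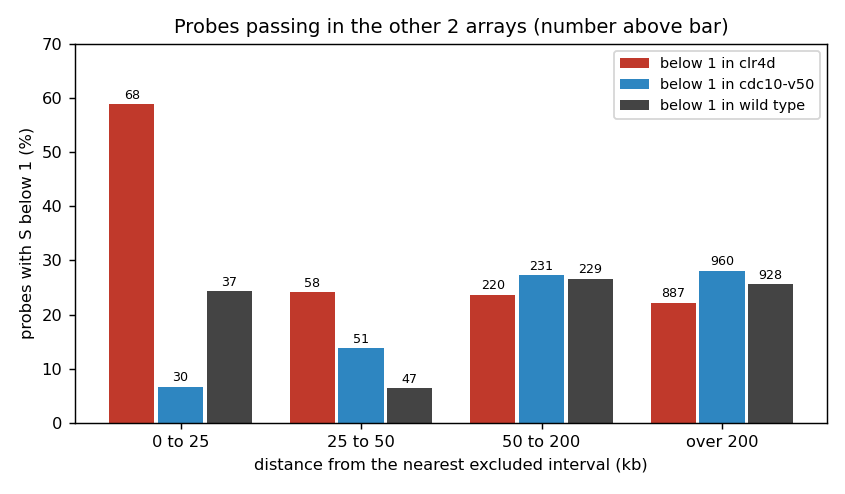
Share of tiles with S below 1 (y axis, percent) among tiles that passed in the other 2 arrays, by distance from the nearest excluded interval (x axis, kb), for clr4d, cdc10-v50 and wild type as the array below 1; numbers above bars are the tiles in each bin. The clr4d bar is 58.8% within 25 kb and 22.2% to 24.1% in the other bins, and the first bins of the other arrays rest on 30 and 37 tiles.

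The ChIP and input channels were also read apart at the regions. Relative to the arm median of its channel, the ChIP signal in clr4d differed from wild type by a median of -0.11 on the log2 scale, and the input signal by 0.28. The ChIP signal was lower than in wild type in 76 of the 119 regions, the input was higher in 99 (83.2%), and both held in 56. Among the 159 regions bound in all arrays, ChIP was lower in 44 (27.7%) and input higher in 124 (78.0%), so input above wild type was common in both sets. Relative to cdc10-v50, input was higher in 82 of the 119 regions (68.9%) and in 56 of the 159 (35.2%), so there the sets differed. At the 119 regions the median relative to cdc10-v50 was -0.25 for ChIP and 0.11 for input. At the 159 regions bound in all arrays, the corresponding medians were 0.20 and 0.16 relative to wild type and -0.03 and -0.08 relative to cdc10-v50. For the flank near the mating-type interval, chrII:2167501-2170200, the ChIP difference from wild type was -0.29 and the input difference 0.57. At the tcb1 region the ChIP difference from wild type was 0.06 and the input difference 0.48. Saturated tiles hold down the wild-type ChIP signal in 67 of the 119 regions and 105 of the 159. There the ChIP differences from wild type are upper limits. The part that input signal has in the choice of these regions was not tested.

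The arrays also differed in how they were scanned. The clr4d and cdc10-v50 arrays were scanned at 20 bits with no saturated ChIP spots, and the wild-type array at 16 bits with 2273 of 41551 saturated (5.47%), so strain and scan setting cannot be told apart between clr4d and wild type. At 81 of the 303 tiles of the regions (26.7%) the wild-type ChIP signal was saturated, beside 28.5% of the tiles bound in all arrays and 2.75% of all arm tiles. In the 67 regions with such a tile inside or next to them, which the running mean takes in, the wild-type level is a lower limit. The flank chrII:2167501-2170200 had 6 saturated tiles and the tcb1 region 3, in each case counting the tile on either side. Spots marked non-uniform numbered 9 in clr4d, 1215 in cdc10-v50 and 62 in wild type, and 17 regions had a tile left out in cdc10-v50, whose array the scanner software marked for evaluation. Across the arms, 6.99% of tiles passed in clr4d, 5.18% in cdc10-v50 and 6.11% in wild type. The 5 tiles at chrII:457501-459000 were picked near clr4 by their low input in clr4d, so they are no independent check of the label. They had a median input intensity of 7.51 in clr4d, 1676 in cdc10-v50 and 1689 in wild type.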

How the data were processed

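The 3 arrays were read from the scanner files, with groups and dyes taken from the labels: Cy5 for ChIP with an antibody against GFP and Cy3 for input, with no dye swap. Per the file headers, Agilent Feature Extraction produced the values, in version 11.5.1.1 for clr4d and cdc10-v50 and in version 11.0.1.1 for wild type. The processed intensity in the deposited files is background-subtracted and dye-normalized by that software, and the log10 ratio in the deposited files is red over green. The authors' deposited value table holds log2 of green over red, equal to minus the scanner ratio within 0.001 at all 41551 probes, with column medians of 0.04 for clr4d, 0.06 for cdc10-v50 and -0.17 for wild type. The deposited 0 or 1 flags and probe numbers, of no scale used here, served only to leave out control spots and non-uniform spots and to mark saturated ones.

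From these, log2(red/green) was set relative to its median over the genome probes (-0.04, -0.06 and 0.17 before centring for clr4d, cdc10-v50 and wild type), with no loess or quantile step. The 1417 control spots, the 1727 probes with names ending in f, m or r, and non-uniform spots were left out, and saturated spots were kept. A running mean over 3 tiles needed at least 2 values. The members, the gene lists and the comparisons were chosen with earlier results of these data known. Named regions are the 10 with the lowest clr4d minus wild type level, the 10 with the lowest clr4d minus cdc10-v50 level, the 5 longest and all on the left arm of chromosome III. Named genes are those overlapping a region on that arm, their converging partners and members of the gene lists. Region finding was run on simulated data with planted stretches far past the threshold, which does not test calls near it. With 1 array per group no test was run, and the number of arrays limits the precision. The number of other per-sample columns was 0.

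The build of the array positions was not given in the sources used here. Input signal was correlated with the GC content of ASM294v3 at shifts in both directions: 10 of 10 stretches of the left arm of chromosome III matched best within -140 to 100 bp, and 2 of 115 elsewhere within 500 bp. Coordinates (1-based) are those on the array, and genes are named in that matching interval alone. Alternatives were background correction by normexp and loess within arrays (limma 3.58.1 in R 4.3.3), the authors' table, centring on the arms, other smoothing, thresholds, joining and sizes, and leaving saturated probes out. The normexp step used median signals, the signal columns at hand. Python 3.11.15 with pandas 2.3.3, numpy 2.4.6 and scipy 1.17.1 made the other computations.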

Additional observations from a re-analysis of the deposited data

How the results depend on the processing

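The main rule gave 119 regions. The count was 209 with normexp, 56 with loess, 197 and 62 at thresholds of 0.8 and 1.2, 21 where clr4d had to be below 0.5, and 45 with at least 3 tiles. Of the 119, 62 overlapped a region found with normexp, 27 one found with loess, 18 both, and 17 a region under each of 8 alternatives that kept the rule's limits; those 17 include the 2 flanks near the mating-type interval, chrII:2346601-2347500 and chrIII:1220701-1223700, but not the tcb1 region, which was lost with loess. The cause was not tested. The median difference of clr4d from wild type was -0.68 with normexp, and with clr4d below 0.5 it was -0.83 from wild type and -0.69 from cdc10-v50. The share beside a clr4d stretch was 73.7% with a running mean of 5, 52.4% with clr4d below 0.5 and 71.1% with at least 3 tiles. Median levels followed the limits set: in clr4d 0.62 and 1.04 at thresholds of 0.8 and 1.2 and 0.43 with clr4d below 0.5, in cdc10-v50 0.93 and 1.33 at those thresholds, and in wild type 1.02 at 0.8 and 1.41 with normexp. The share of shared tiles below the threshold in clr4d, a result added after seeing the data, was 42.5% within 25 kb and 13.7% beyond 200 kb with loess, 19.1% and 3.16% with clr4d below 0.5, and 18.6% beyond 200 kb at a threshold of 0.8. The sign of the differences is set by the rule in each of the 14 alternatives. No paired analysis was possible because each group has 1 array. The number of arrays, and saturation in wild type, limit all of these values.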
